A study of Mus musculus with 6 samples.

Results

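Mitochondrial fatty acid oxidation is described here through 10 genes, which were the rows of the deposited count table whose symbol was Cpt1a, Cpt2, Acadm, Acadl, Acadvl, Acads, Hadha, Hadhb, Hadh or Ppara. All 10 were found among 46095 rows, and all 10 passed the filter on low counts with 14611 genes in total. The cells were primary renal tubular epithelial cells (PTECs) isolated from kidneys of mice aged 10 weeks on a C57 background. Every mouse carried Ksp-Cre, a Cre recombinase transgene under the promoter of Cdh16, a cadherin of the renal tubule, so deletion was limited to cells in which that promoter had been active. In the VHL-KO group (replicates 1, 2 and 4) the transgene acted on VHL fl/fl alleles, and in the VHL-KO;SETD2-KO group (replicates 2, 3 and 4) it acted on VHL fl/fl and Setd2 fl/fl alleles. Loss of VHL was therefore shared by both groups, no wild-type library was analysed here, and each group held 3 libraries from 3 mice. The comparison asks how the added loss of SETD2, the histone methyltransferase that trimethylates lysine 36 of histone H3, was accompanied by a change of these transcripts in VHL-deficient tubular cells.

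Proximal tubule cells draw most of their ATP from fatty acids, which makes this pathway a usual readout of their metabolic state. Long-chain acyl groups enter the mitochondrion by the carnitine shuttle, in which CPT1A acts at the outer membrane and CPT2 at the inner membrane. Each turn of the β-oxidation spiral then begins with an acyl-CoA dehydrogenase chosen by chain length (ACADVL, ACADL, ACADM or ACADS) and continues through hydration, a second dehydrogenation and thiolysis, carried out for long chains by the trifunctional protein of HADHA and HADHB and for shorter chains by enzymes that include HADH. PPARα, encoded by Ppara, is the nuclear receptor that induces many of these enzymes when fatty acids are plentiful. VHL marks hypoxia-inducible factors for degradation, and its loss is known for a shift of renal cells away from oxidation and towards lipid storage.

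The promoter windows of 3 genes are shown, and that of Hadhb is referred to again beside the counts. All sequences are RefSeq windows on GRCm38.p6, from 250 bases before to 50 bases after an annotated start site, and a window was found for each of the 10 genes. The windows of Cpt1a and Ppara use a start site 975 and 866 bases inside the gene's outermost bounds given below, and those of the other 8 genes use the outermost start. Hadha and Hadhb lie head to head on chromosome 5 with 273 bases between their start sites, so that their windows share 228 bases, given in capitals on the plus strand at chr5:30155003-30155302. In the windows of Acadm (minus strand, chr3:153944594-153944893) and Cpt1a (plus strand, chr19:3323051-3323350) the capitals mark the reverse complement of AGGTCA, the hexamer bound by nuclear receptors.
Hadhb: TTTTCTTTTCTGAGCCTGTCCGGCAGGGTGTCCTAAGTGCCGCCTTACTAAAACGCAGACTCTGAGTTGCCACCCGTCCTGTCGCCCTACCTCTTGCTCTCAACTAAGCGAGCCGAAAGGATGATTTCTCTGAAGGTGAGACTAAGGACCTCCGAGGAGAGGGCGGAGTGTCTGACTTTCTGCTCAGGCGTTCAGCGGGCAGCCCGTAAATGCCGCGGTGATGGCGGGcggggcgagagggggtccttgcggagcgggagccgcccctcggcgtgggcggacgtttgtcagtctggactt
Acadm: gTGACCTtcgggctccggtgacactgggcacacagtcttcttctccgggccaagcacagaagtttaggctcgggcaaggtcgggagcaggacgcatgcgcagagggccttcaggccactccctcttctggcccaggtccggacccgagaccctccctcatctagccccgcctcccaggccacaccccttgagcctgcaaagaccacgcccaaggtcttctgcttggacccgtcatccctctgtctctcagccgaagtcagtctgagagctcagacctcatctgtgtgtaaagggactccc
Cpt1a: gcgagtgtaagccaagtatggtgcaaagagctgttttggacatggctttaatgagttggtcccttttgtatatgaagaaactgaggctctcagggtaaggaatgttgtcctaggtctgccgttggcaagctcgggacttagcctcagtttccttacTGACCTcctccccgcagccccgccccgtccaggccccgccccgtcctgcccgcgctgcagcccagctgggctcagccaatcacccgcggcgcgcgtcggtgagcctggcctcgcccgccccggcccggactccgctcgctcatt
The hexamer AGGTCA, searched on both strands, was found in the windows of Cpt1a, Acadm and Acadvl, and in 16.3% of the 32851 RefSeq promoter windows. The response element of PPARα, 2 such hexamers in tandem with 1 base between them, searched without mismatches, was found in none of the 10 windows and in 0.0396% of all windows. The hypoxia response core ACGTG was found only in that of Acadvl among the 10, and in 19.6% of all windows. A GC box, GGGCGG, was found in 8 of the 10 windows and in 35.7% of all windows. These are matches of letters within 300 bases, with no measurement of binding.

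Totals ranged from 11168552 to 17883466 counts per library, and 3 counts, taken as the smallest detectable signal, corresponded to 0.168 to 0.269 CPM. CPM is the count divided by the library's total and given per 1000000 counts, and levels below are CPM scaled by TMM factors. Setd2 itself was counted 1179, 799 and 132 times under the VHL-KO label and 1499, 1019 and 1429 times under the VHL-KO;SETD2-KO label, so its whole-gene count was not lower under the label that names its deletion. Counts over a whole gene do not resolve the deleted exons, and the genotypes below are those of the labels. Vhl was counted between 139 and 317 times. The libraries labelled VHL-KO replicate 4 and VHL-KO;SETD2-KO replicate 3 stood apart. In VHL-KO replicate 4, genes of mitochondrial DNA took 11.3% of counts against 25.9% to 36.4% elsewhere, and its Spearman correlations with the other libraries were 0.717 to 0.765 across genes, against 0.937 to 0.986 between the others. VHL-KO;SETD2-KO replicate 3 held 11704 counts of Xist and 1 count over Y-linked genes, where the others held 0 to 4 and at least 260. Such counts are those of female cells in that library and of male cells in the others. Sex is read here from these counts alone. Results are therefore also given without VHL-KO replicate 4 and without VHL-KO;SETD2-KO replicate 3.

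Across all 6 libraries, 8 of the 10 genes had a lower fitted level under VHL-KO;SETD2-KO and 2 had a higher one, with a median log2 fold change of -0.34, against 0.0095 over all genes tested and an interquartile range there of -0.59 to 0.46. By edgeR's quasi-likelihood test, Acads alone passed an unadjusted p of 0.05 with a fold of at least 1.5, in the downward direction. That threshold was passed downward by 4.68% of all genes and upward by 2.66%. None of the 10 passed after Benjamini-Hochberg adjustment (adjusted p = 0.625 to 0.994), where 1 gene of the whole table did (0.00684%). With DESeq2, 1 of the 10, again Acads, passed the unadjusted threshold (6.21% of all genes in either direction), and none passed after adjustment (4.03% of the 1264 genes that received an adjusted p, which Acadvl, Hadhb and Ppara did not). Acads, Cpt2 and Hadh were lower in every library labelled VHL-KO;SETD2-KO than in any labelled VHL-KO, as were 11% of all genes. None of the 10 was higher without overlap, where 9.62% of all genes were.

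**Figure D1:**
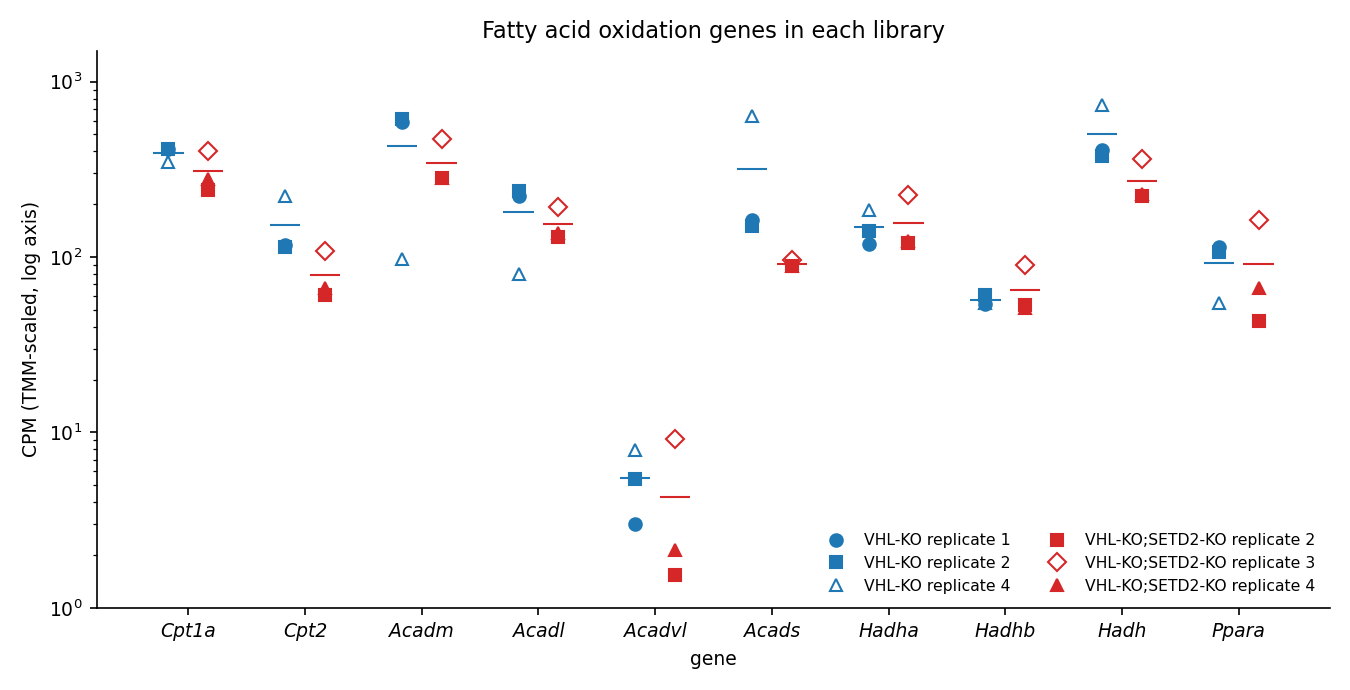
TMM-scaled CPM of the 10 genes (log axis) in each of 6 libraries; horizontal bars are group means (n = 3), and open symbols are VHL-KO replicate 4 and VHL-KO;SETD2-KO replicate 3. Only Cpt2, Acads and Hadh have no red point above a blue one, and the open symbols set much of the spread, from 98.0 to 609 CPM for Acadm under VHL-KO.

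Of the carnitine shuttle, Cpt2 separated the groups and Cpt1a did not. Cpt1a, whose product commits long-chain acyl groups to oxidation (chr19:3322326-3385735, plus strand), stood at 412, 412 and 350 CPM in VHL-KO and at 241, 404 and 278 CPM in VHL-KO;SETD2-KO. The groups overlapped through VHL-KO;SETD2-KO replicate 3, and the log2 fold change of -0.35 ± 0.41 (SE) was smaller than its error (edgeR, adjusted p = 0.780). Cpt2, which rebuilds acyl-CoA in the matrix (chr4:107903982-107923589, minus strand), stood at 117, 115 and 224 CPM against 61.0, 109 and 66.6 CPM. All 3 VHL-KO values were above all 3 VHL-KO;SETD2-KO values. Its log2 fold change was -0.95 ± 0.47 (SE), with an unadjusted p of 0.0762 and an adjusted p of 0.625 by edgeR.

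Of the acyl-CoA dehydrogenases, the short-chain enzyme gave the largest fold change with all 6 libraries, a rank that it lost to Acadm without VHL-KO replicate 4 (log2 fold change -0.78 against -0.80). Acads (chr5:115110299-115119346, minus strand) stood at 162, 151 and 634 CPM in VHL-KO and at 89.5, 96.7 and 89.4 CPM in VHL-KO;SETD2-KO. The 3 VHL-KO;SETD2-KO libraries lay close together, and VHL-KO replicate 4 was far above its group. The log2 fold change was -1.78 ± 0.63 (SE). The adjusted p of Acads was 0.625 by edgeR (0.0219 unadjusted). By DESeq2 its adjusted p was 0.0598 (0.00327 unadjusted). Acadm, the medium-chain enzyme (chr3:153922353-153944643, minus strand), stood at 590, 609 and 98.0 CPM against 282, 468 and 283 CPM. Here VHL-KO replicate 4 was the lowest of the 6 libraries, so the groups overlapped, and the log2 fold change was -0.33 ± 0.68 (SE; edgeR, adjusted p = 0.866). Acadl, the long-chain enzyme (chr1:66830839-66863309, minus strand), showed the same order of libraries, with 224, 237 and 80.0 CPM against 131, 192 and 138 CPM. Its log2 fold change was -0.23 ± 0.51 (SE; edgeR, adjusted p = 0.875). For both Acadm and Acadl, VHL-KO replicates 1 and 2 were above all 3 VHL-KO;SETD2-KO libraries.

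Acadvl, the very-long-chain enzyme (chr11:70010183-70015428, minus strand), was counted 50, 59 and 85 times in VHL-KO and 29, 164 and 34 times in VHL-KO;SETD2-KO, or 3.03, 5.45 and 7.94 CPM against 1.54, 9.22 and 2.13 CPM. VHL-KO;SETD2-KO replicate 3 held the highest value and replicate 2 of the same group the lowest, and the log2 fold change was -0.34 ± 0.75 (SE; edgeR, adjusted p = 0.873). Its level was far below those of the other enzymes, and its neighbours on the chromosome were low as well. In a stretch of 799 kb that holds it, from Neurl4 to Inca1 (chr11:69901727-70700285), 0 of 47 genes had more than 1000 counts summed over the 6 libraries, against 15 of 40 genes on either side. The stretch includes genes that nearly every cell transcribes strongly, such as Eif5a, a translation factor with 522 counts in all, Pfn1, an actin-binding protein with 205, and Psmb6, a proteasome subunit with 109. Kif1c, the next gene after Inca1, had 5112 counts. On the other side Tmem256 had 5029, but the genes between it and the stretch were lower, from 5 for 2810408A11Rik to 1532 for Plscr3. The bounds of this stretch were chosen after the counts were seen, and what lies behind it was not tested. The deposited level of Acadvl is thus uncertain. In GENCODE, though not in RefSeq, its neighbour Dvl2 on the plus strand also runs into it, with 256 bases of transcript in common.

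**Figure D2:**
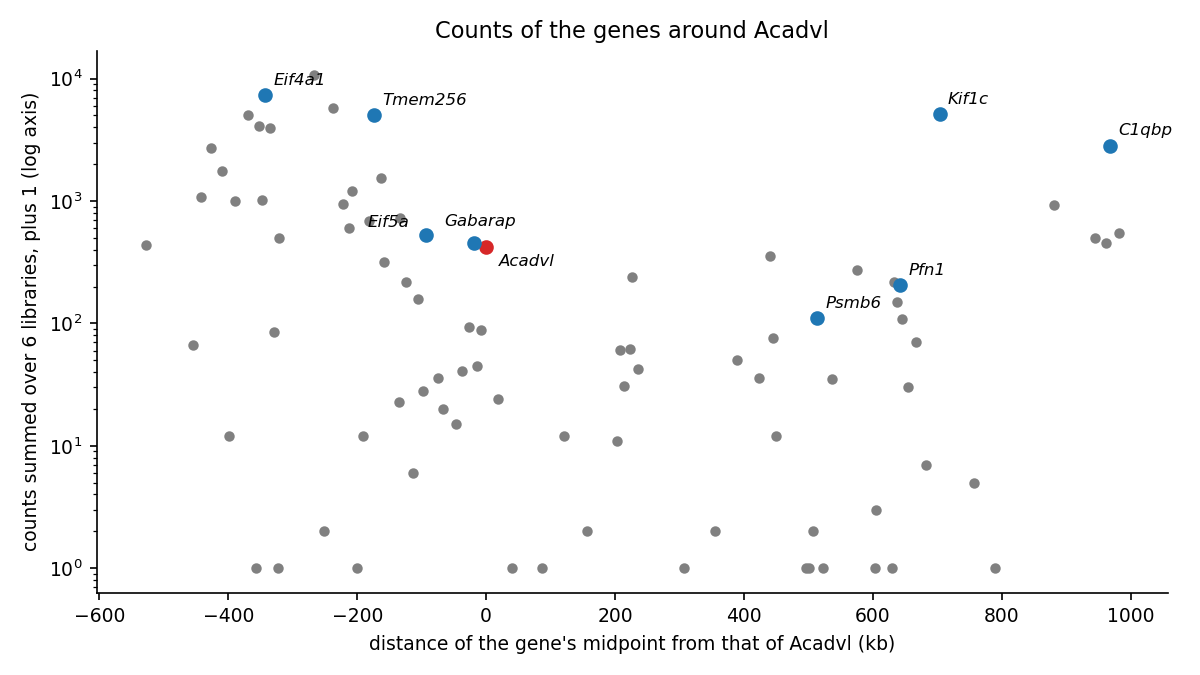
Counts summed over 6 libraries, plus 1, on a log axis, for genes around Acadvl (red), against the distance in kb between gene midpoints. Low counts extend over both sides of Acadvl, including Eif5a (522) and Psmb6 (109), whereas Eif4a1, Tmem256, Kif1c and C1qbp beyond it are at 2834 or more.

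The trifunctional protein genes were the 2 with a fitted rise, and neither passed the test. Hadha, its hydratase and dehydrogenase subunit (chr5:30119423-30154980, minus strand), stood at 119, 141 and 185 CPM against 120, 227 and 123 CPM, with a log2 fold change of 0.08 ± 0.44 (SE; edgeR, adjusted p = 0.955). Hadhb, the thiolase subunit (chr5:30155253-30184593, plus strand), stood at 54.0, 61.0 and 54.7 CPM against 53.3, 90.1 and 51.3 CPM, with a log2 fold change of 0.20 ± 0.40 (SE; edgeR, adjusted p = 0.862). In both genes VHL-KO;SETD2-KO replicate 3 was the highest of the 6, and without it both fold changes fell below 0. Hadhb has a processed pseudogene, Gm13910, with 99.8% identity over 1428 bases, which was counted 396 to 983 times per library, against 586 to 1602 times for Hadhb. Reads of the pair may have been divided between them. The share of Hadhb in the sum of Hadhb, Gm13910 and a second copy, Gm9108, was 57.0% to 61.2% in all 6 libraries, and with the 3 summed the log2 fold change of Hadhb was 0.16. The log2 ratio of Hadha to Hadhb, which face each other across the shared window shown above, lay between 1.14 and 1.33 in 5 libraries and at 1.75 in VHL-KO replicate 4. Its SD over the 6 libraries was 0.23, the second lowest of the 45 pairs among the 10 genes, and 0.08 without VHL-KO replicate 4.

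Hadh, the 3-hydroxyacyl-CoA dehydrogenase for medium and short chains (chr3:131233419-131272101, minus strand), fitted lower and did not overlap between groups. It stood at 408, 376 and 735 CPM in VHL-KO and at 223, 363 and 229 CPM in VHL-KO;SETD2-KO, with VHL-KO replicate 4 the highest. The log2 fold change was -0.90 ± 0.47 (SE), with an unadjusted p of 0.0923 and an adjusted p of 0.625 by edgeR. Hadh and Cpt2, on chromosomes 3 and 4, kept the closest ratio of all 45 pairs, with a log2 ratio of Cpt2 to Hadh between -1.87 and -1.71 in the 6 libraries (SD 0.06). This holds in VHL-KO replicate 4 too, where both genes were about as far above their group. The loosest pair was Acadm and Acads, with an SD of the log2 ratio of 1.89 over 6 libraries and 0.26 without VHL-KO replicate 4.

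Ppara, the receptor (chr15:85734910-85806851, plus strand), had close group means, 92.2 ± 32.6 CPM in VHL-KO and 91.2 ± 63.7 CPM in VHL-KO;SETD2-KO (SD, n = 3), and, after Acadvl, the largest ratio of the highest to the lowest library within VHL-KO;SETD2-KO. It stood at 115, 107 and 54.9 CPM in VHL-KO and at 43.2, 163 and 67.0 CPM in VHL-KO;SETD2-KO, so that VHL-KO;SETD2-KO held both the lowest and the highest library. The log2 fold change was -0.02 ± 0.58 (SE; edgeR, adjusted p = 0.994), and a change of 1.5-fold in either direction lay within 2 standard errors. The sign itself turned with the scaling, to 0.00058 when genes of mitochondrial DNA were left out of library sizes.

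Per kilobase of transcript, which allows levels to be compared between genes, the medians over 6 libraries ran from Hadh (207 CPM per kb) and Acadm (183) through Cpt1a (87.3), Acadl (86.1), Acads (66.3), Cpt2 (47.1), Hadha (32.9), Hadhb (26.5) and Ppara (25.5) to Acadvl (1.95). The ranges over libraries of each neighbouring pair in this order overlapped, except for Ppara and Acadvl. Among tested genes outside the 10, some of those whose centred log2 CPM over the 6 libraries was nearest to the mean of the 9 enzymes were Mybl2 (root mean square distance 0.08), Mapk4 (0.09), Ppa1, an inorganic pyrophosphatase (0.12), and Fh1, the fumarase of the citric acid cycle (0.12). The 9 enzymes themselves lay further from that mean than these genes, at 0.14 for Cpt1a to 0.94 for Acadm. Mybl2 was low, between 0.564 and 1.20 CPM in the 6 libraries. Fh1 stood at 142, 126 and 153 CPM in VHL-KO and at 92.8, 142 and 87.4 CPM in VHL-KO;SETD2-KO. In the mean profile of the enzymes, as in Fh1, VHL-KO;SETD2-KO replicate 3 sat with the libraries labelled VHL-KO.

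VHL-KO replicate 4 moved the 10 genes in opposite directions. Its log2 CPM minus the mean of VHL-KO replicates 1 and 2 was -2.61 for Acadm, -1.52 for Acadl, -1.01 for Ppara, -0.24 for Cpt1a and -0.07 for Hadhb, and it was 0.51 for Hadha, 0.91 for Hadh, 0.94 for Acadvl, 0.95 for Cpt2 and 2.02 for Acads. Over all tested genes the quartiles of this difference were -1.68 and 1.29, so the library departed from its group across the transcriptome. The departure followed the GC content of the transcript. In 5 equal bins of genes from low to high GC content, the median of its log2 CPM minus the mean of the 6 libraries was -1.92, -1.08, 0.02, 0.89 and 1.23. Acads has the highest GC content of the 10 (60.1%) and stood furthest above its mean in that library, and Acadm (48.0%) and Acadl (45.1%) stood furthest below. Hadhb, with a similar 45.4%, departed by only -0.12. A fit of all genes on GC content and length left -1.37 of the departure of -1.75 for Acadm, and 0.60 of 2.07 for Acads. With an offset for GC content and transcript length in the fit, 3 of the 10 passed the unadjusted threshold downward, as did 8.87% of all genes in that fit. They were Acads (log2 fold change -0.998 ± 0.20, SE), Hadh (-0.71 ± 0.29) and Cpt2 (-0.64 ± 0.26), and none passed after adjustment by edgeR.

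**Figure D3:**
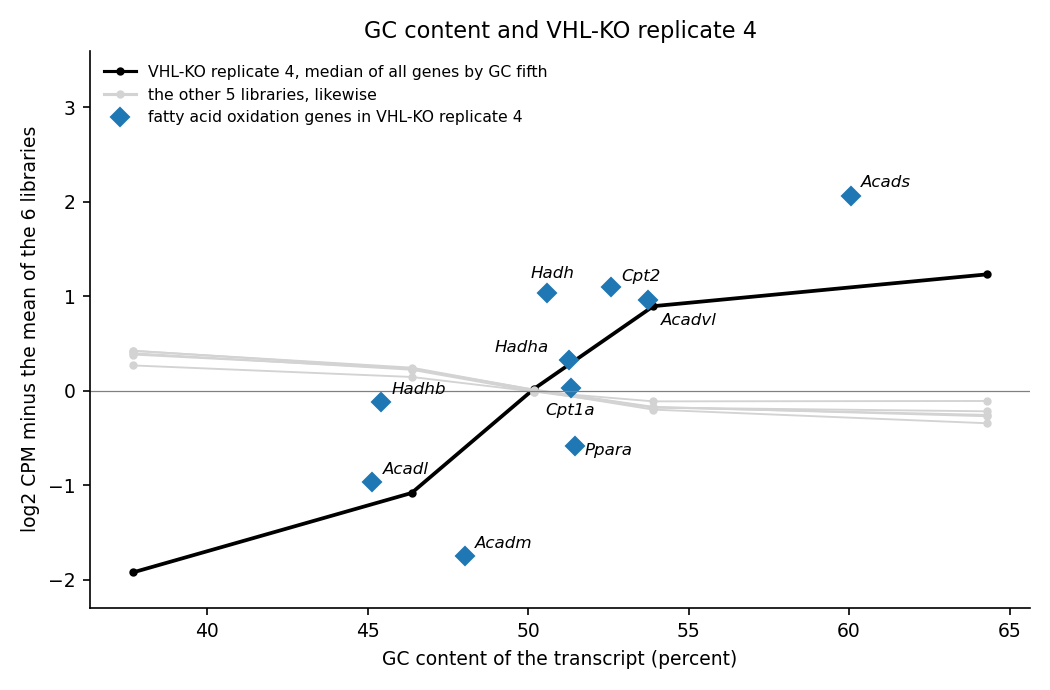
Log2 CPM minus the mean of the 6 libraries against transcript GC content in percent; diamonds are the 10 genes in VHL-KO replicate 4, the black line is that library's median over all genes in each of 5 equal bins by GC content, placed at the middle of the bin's range, and grey lines are the other 5 libraries. The black line climbs from -1.92 to 1.23, with Acads at the GC-rich end and Acadl and Acadm at the GC-poor end.

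VHL-KO;SETD2-KO replicate 3 moved the 10 genes in 1 direction. Each was higher in it than in both replicates 2 and 4 of the same group, as were 41.5% of all tested genes. The log2 CPM minus the mean of those replicates ran from 0.11 for Acads to 2.27 for Acadvl, with Ppara at 1.60 and a median of 0.75, against 0.003 over all tested genes. In 4 of the 10 (Acadvl, Hadha, Hadhb and Ppara) it was the highest of all 6 libraries, as it was for 12% of all tested genes. PPARα target genes were higher in it as well. Of 21 tested targets, 18 were above both replicates 2 and 4, with a median difference of 1.31 on the log2 scale. Cyp4a14 and Cyp4a10, fatty acid ω-hydroxylases, stood at 768 and 338 CPM in it, against 4.40 to 25.4 and 43.4 to 151 CPM in the other 5 libraries. The exceptions were Acot12, Cyp4b1 and Cyp4a12a, and the last, a gene known to be induced by androgens, stood at 8.43 CPM against 89.7 to 574 CPM. Markers of other tubule cells moved with it too. All 9 of 9 thick ascending limb markers and 9 of 9 collecting duct markers were above replicates 2 and 4, and 9 of 15 proximal tubule markers and 0 of 7 podocyte markers were. Of 5 tested injured tubule markers, 2 were above replicates 2 and 4, near the share of all tested genes. The injured tubule markers summed to 1212 CPM in it and to 77.8 to 251 CPM in the other libraries, nearly all of it Spp1. The part of these cells, or of sex as read from Xist and Y-linked counts, in the values of the 10 genes was not tested. With 1 such library they cannot be told apart.

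**Figure D4:**
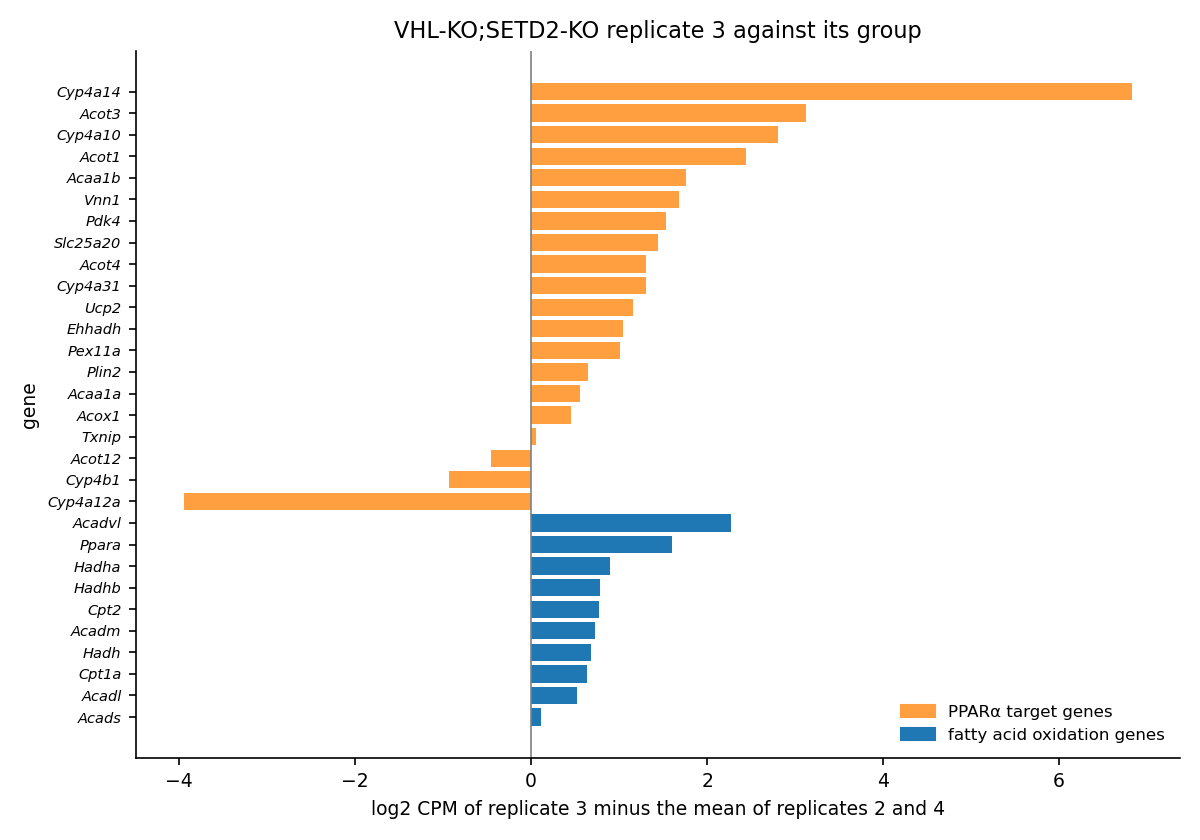
Log2 CPM of VHL-KO;SETD2-KO replicate 3 minus the mean of replicates 2 and 4 of its group, for the 10 genes (blue) and 20 of the tested PPARα targets, those outside the ketone list (orange). All 10 blue bars are above 0, from 0.11 to 2.27, and 17 orange bars are, up to 6.83 for Cyp4a14.

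The calls depended on which of these libraries entered the fit. Without VHL-KO replicate 4, edgeR's unadjusted threshold was passed downward by 3 of the 10 and by 7.15% of all genes. Acads had a log2 fold change of -0.78 ± 0.13 (SE), Acadm of -0.80 ± 0.27 and Acadl of -0.59 ± 0.21, and the lowest adjusted p was 0.0784, for Acads. DESeq2 on the same 5 libraries called the same number, with an adjusted p of 0.000333 for Acads. Of 24670 genes in that DESeq2 fit, 1125 passed downward unadjusted and 676 after adjustment. The fold change of Acads thus fell from -1.78 to -0.78 on the log2 scale when that library was removed, while its standard error fell from 0.63 to 0.13. Without VHL-KO;SETD2-KO replicate 3 instead, all 10 log2 fold changes were below 0, with a median of -0.68. Acads then no longer passed (log2 fold change -1.80, edgeR, adjusted p = 0.753; unadjusted 0.0601), and Acadvl did, unadjusted (-1.56 ± 0.63, SE). That fit called 2.2% of all genes downward, so 1 of 10 is near its background. Without VHL-KO;SETD2-KO replicate 2 or replicate 4, Acads stood at -1.73 in each case and 0 of the 10 passed, where 1.37% and 1.78% of all genes did. With both divergent libraries removed, 2 were left against 2, and 8 of the 10 passed downward unadjusted (10.4% of all genes) and 7 after adjustment (7.9%). The 7 were Cpt1a, Cpt2, Acadm, Acadl, Acads, Hadh and Ppara, with log2 fold changes between -0.67 ± 0.13 (SE) for Cpt1a and -1.08 ± 0.12 for Acadm. Acadvl, at -1.20 ± 0.41, passed unadjusted only (edgeR, adjusted p = 0.0876). Hadha and Hadhb, at -0.10 ± 0.13 and -0.14 ± 0.12, did not pass. This choice of 2 against 2 libraries was made with the values of the 10 genes known, so its calls are a description of those 4 libraries.

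**Figure D5:**
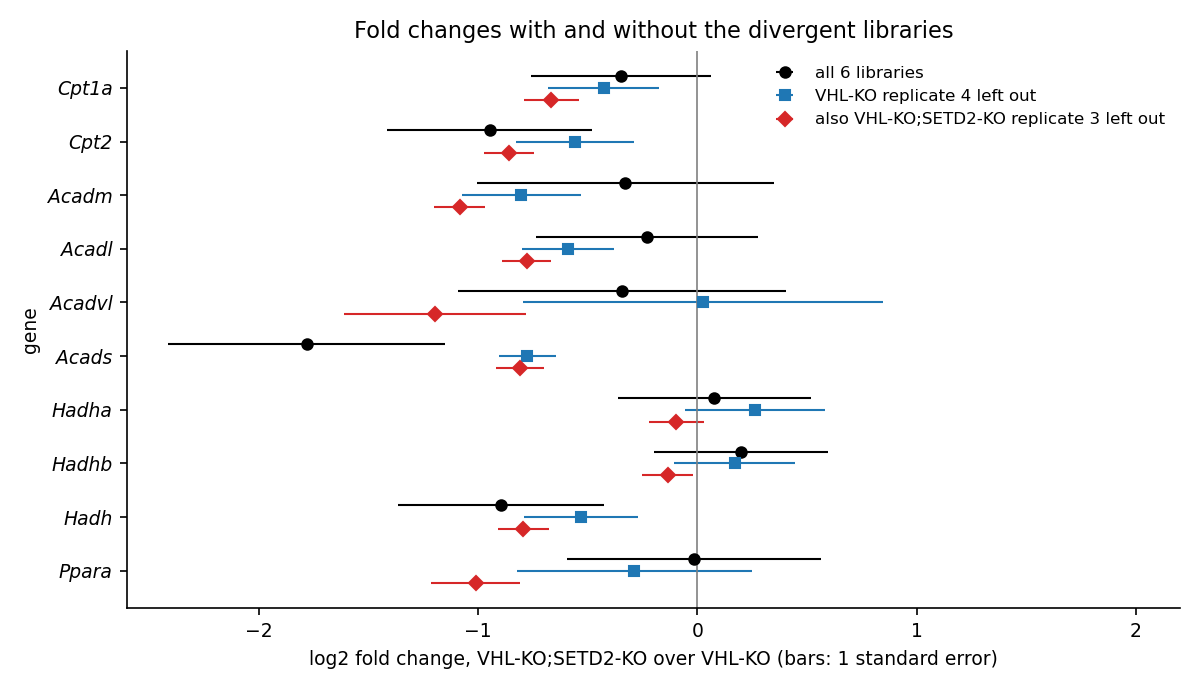
Log2 fold change of VHL-KO;SETD2-KO over VHL-KO by edgeR, with 1 standard error, for all 6 libraries (black), without VHL-KO replicate 4 (blue) and without VHL-KO;SETD2-KO replicate 3 as well (red). The red points carry smaller errors than the black ones for each gene, and only Hadha and Hadhb stay within 0.27 of 0 in all 3 fits.

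The wider pathway was read from lists of genes around these 10. Of 23 tested genes for other steps of mitochondrial β-oxidation, 0 rose and 1 fell at the unadjusted threshold, the median log2 fold change was -0.58, and 20 had a value below 0. The one that fell was Acad10, an acyl-CoA dehydrogenase family member (71.4, 63.3 and 239 CPM against 33.6, 46.5 and 47.5; log2 fold change -1.55). Its relative Acad12 (-1.32) and Ech1, a dienoyl-CoA isomerase (-1.41), followed with unadjusted p of 0.0505 and 0.0536 by edgeR. In each of these 3 genes VHL-KO replicate 4 was the highest library, as in Acads.

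Of 18 tested genes for uptake, activation and carnitine transfer of fatty acids, 1 rose and 0 fell, with a median of -0.07. Fabp4, a fatty acid-binding protein of adipocytes and endothelium, rose (9.68, 19.1 and 4.11 CPM against 26.9, 72.1 and 23.5; log2 fold change 1.90), while adiponectin (Adipoq) was at or below 0.225 CPM in every library. Slc27a2, the fatty acid transporter FATP2 of the proximal tubule, stood at 3369, 3384 and 2199.5 CPM against 1335, 1632 and 1459 CPM, with no overlap and an unadjusted p of 0.0508 by edgeR. Mlycd, which degrades the CPT1 inhibitor malonyl-CoA, had a log2 fold change of -1.34 and did not pass. It stood at 42.4, 39.0 and 172 CPM against 27.4, 41.2 and 31.2 CPM, with overlap and with VHL-KO replicate 4 far above the other libraries.

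Of 7 tested ketone and acetate genes, 0 rose and 3 fell, none with overlap, while the median of the list was 0.17. Bdh1, the 3-hydroxybutyrate dehydrogenase, stood at 115, 117 and 160 CPM against 41.0, 29.9 and 61.5 CPM (log2 fold change -1.57). Acss2, the cytosolic acetyl-CoA synthetase, fell too (233, 205 and 490 CPM against 106, 82.0 and 108 CPM; log2 fold change -1.65). In Bdh1 and Acss2, VHL-KO;SETD2-KO replicate 3 was the lowest library, unlike in the 10 genes.

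Of 20 tested partners and regulators of PPARα, 0 rose and 2 fell, with a median of 0.04. Sirt3, the mitochondrial deacetylase, stood at 67.8, 65.1 and 180 CPM against 34.5, 47.9 and 35.8 CPM (log2 fold change -1.41). Hnf4a, a nuclear receptor that maintains proximal tubule identity, stood at 736, 662 and 985 CPM against 303, 447 and 412 CPM (-1.04). Rxra, the heterodimer partner of PPARα, did not overlap between groups but did not pass (-1.07; edgeR, unadjusted p = 0.0655). Of the 21 tested PPARα targets, 1 rose and 1 fell, with a median of -0.52. Cyp4a14 passed upward through VHL-KO;SETD2-KO replicate 3 alone (6.78, 25.4 and 11.3 CPM against 4.40, 768 and 9.89), and Cyp4b1 fell without overlap (log2 fold change -2.00). No gene of these lists passed after adjustment by edgeR. The unadjusted counts moved with single libraries, as the calls over all genes did. Without VHL-KO replicate 1, 2 or 4 the other β-oxidation genes that fell were 4, 5 and 5 of the list, in fits that called 6.49%, 7.11% and 7.15% of all genes downward. Without any 1 of the VHL-KO;SETD2-KO libraries they were 0, in fits that called 1.37% to 2.2%. The partners that fell likewise ran from 0, without VHL-KO;SETD2-KO replicate 2 or 4, to 4, without VHL-KO replicate 4. The ketone genes that fell stayed at 2 or 3. The targets that fell ran from 1 to 4, with the highest count without VHL-KO;SETD2-KO replicate 3, where Cyp4a14 no longer passed. Nor did any target pass upward without VHL-KO replicate 1 or 2, or with DESeq2 or limma-voom on all 6 libraries. Fabp4 no longer passed without VHL-KO replicate 1 or VHL-KO;SETD2-KO replicate 3.

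Proximal tubule markers were present in all 6 libraries and lower under VHL-KO;SETD2-KO. Their summed level was 31551 to 36407 CPM in VHL-KO and 11392 to 15131 CPM in VHL-KO;SETD2-KO, 6 of 15 passed the unadjusted threshold downward, and the median log2 fold change of the 15 was -1.39, below the -0.34 of the fatty acid oxidation genes. The 10 genes summed to 2204, 2214 and 2423 CPM in VHL-KO and to 1245, 2122 and 1328 CPM in VHL-KO;SETD2-KO. Relative to the marker sum they stood at 6.46%, 7.02% and 6.66% in VHL-KO and at 9.20%, 18.6% and 8.78% in VHL-KO;SETD2-KO, and the groups did not overlap. Kap, an androgen-regulated kidney gene, made up much of the marker sum (7605 to 18256 CPM against 1214 to 6954 CPM). Without Kap the ratios were 13.9%, 14.4% and 8.41% against 18.4%, 20.8% and 16.2%, again higher under VHL-KO;SETD2-KO. Fewer proximal tubule cells and less of these transcripts per cell cannot be told apart in bulk libraries. Markers of other cells were also present. Podocyte markers summed to 1514 to 2172 CPM in VHL-KO and 2075 to 5097 CPM in VHL-KO;SETD2-KO, with 4 of 7 passing upward unadjusted, and endothelial markers to 1460 to 1927 against 1518 to 4523 CPM, with 0 of 8 passing. Thick limb markers summed to 1853 to 7178 against 1852 to 4619 CPM, collecting duct markers to 59.7 to 574 against 99.6 to 335 CPM, and immune markers to 116 to 318 against 77.3 to 269 CPM. At the unadjusted threshold 3 of 9 collecting duct markers passed upward and 0 downward. Of 9 thick limb markers, 1 passed upward and 1 downward, and of 9 tested immune markers 0 and 2 did. Over all genes 2.66% passed upward and 4.68% downward. Stromal markers summed to 92.6 to 549 against 95.1 to 240 CPM and erythroid markers to 533 to 1880 against 552 to 599 CPM, with 0 passing in either list. Injured tubule markers summed to 207, 231 and 77.8 CPM in VHL-KO and to 244, 1212 and 251 CPM in VHL-KO;SETD2-KO without overlap. Nearly all of that sum was Spp1, osteopontin, which passed upward unadjusted (198, 195 and 61.6 against 231, 1198 and 243 CPM), while Havcr1, the injury marker KIM-1, was under 2 CPM in every library and passed downward. Their part in the differences of the fatty acid oxidation genes was not tested.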

How the data were processed

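RNA was sequenced from PTECs of 6 mice, 3 per genotype label, as directional paired-end libraries. Per the labels, reads were aligned with HISAT2 2.0.4 to GRCm38. The program that counted reads, its annotation and its use of strand are not given in the sources used here. The authors deposited raw counts per gene symbol, without normalization. Every per-sample column was used.

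From these counts, TMM factors, filterByExpr and the quasi-likelihood test of edgeR 4.0.16 (R 4.3.3) were run over 14611 of 46095 genes in a model with 1 term, the genotype label, followed by Benjamini-Hochberg adjustment over every gene tested. Calls needed p under 0.05 and a fold of at least 1.5. A prior count of 2 entered the log2 CPM. The fits were tested on simulated data. Samples were grouped by label, and totals of 11168552 to 17883466 counts set the precision, for counting error only. DESeq2 1.42.0 and limma 3.58.1 (voom) were alternatives, with other scalings, filters, a fold of at least 2, a replicate block and leaving out each library. Fits without both divergent libraries, DESeq2 without VHL-KO replicate 4, the offset for GC content and length, and pseudogene counts added to Hadhb were chosen after seeing the data. Transcript length and GC content were read from GENCODE for 94.5% of tested genes, and positions and promoters from RefSeq tables on GRCm38.p6.

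The 10 genes and all lists were chosen with earlier results of these data known. Genes named are the 10, up to 3 genes of lowest p in each pathway list, and the 5 nearest in profile to the mean of the enzymes, some of which are not reported here. Genes around Acadvl, pseudogenes, Xist, Kap and the targets shown for VHL-KO;SETD2-KO replicate 3 were chosen after their values were seen.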

Additional observations from a re-analysis of the deposited data

How the results depend on the processing

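With RLE size factors, DESeq2, limma-voom, no filter, at least 10 counts in every library, library sizes without genes of mitochondrial DNA and a fold of at least 2, 1 of the 10 genes passed the unadjusted threshold downward, as in the fit reported, and 0 passed after adjustment. Leaving out single libraries gave 0 to 3 genes passing downward, in fits that called 1.37% to 7.15% of all genes downward. The count was 0 without VHL-KO;SETD2-KO replicate 2 or replicate 4, 3 without VHL-KO replicate 4, and 1 in the other cases. The median log2 fold change of the 10 then ran from -0.68, without VHL-KO;SETD2-KO replicate 3, to -0.15. With the GC and length offset 3 passed, as did 8.87% of all genes in that fit. With both divergent libraries left out, 8 passed unadjusted and 7 adjusted with either tool, with a median of -0.80 by edgeR and -0.81 by DESeq2. Those fits called 10.4% and 7.9% of all genes downward by edgeR, and 1396 and 1171 of 23681 genes by DESeq2. DESeq2 without VHL-KO replicate 4 gave 3 unadjusted and 1 adjusted, where 1125 and 676 of 24670 genes passed downward. With the replicate block, 0 passed and the median was -0.53. Libraries numbered 2 and 4 exist in both groups. Deviations of same-numbered libraries from their group means correlated at 0.16 and -0.32 across genes. The divergent libraries enter those means, so these values cannot decide whether same-numbered libraries were paired.

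Directions turned as follows, on the log2 scale, and in no fit where its direction turned did the gene pass. Acadm turned to 0.031 with limma-voom and 0.21 with the replicate block. Hadha turned to -0.41 with the block, -0.10 with both divergent libraries left out by edgeR and -0.10 by DESeq2. Hadhb turned to -0.14 with the block, -0.14 in both 2 against 2 fits and -0.24 with the offset. Acadvl turned to 0.056 with the offset and 0.014 in DESeq2 without VHL-KO replicate 4. Ppara turned to 0.013 without a filter, 0.011 at 10 counts and 0.00058 without mitochondrial DNA. Leaving out single libraries moved Acadl between -0.59 and 0.017, Acadvl between -1.56 and 0.074, Hadha between -0.28 and 0.26, Ppara between -0.74 and 0.32 and Hadhb between -0.11 and 0.35. At the ends of these ranges, Acadl at -0.59 and Acadvl at -1.56 passed the unadjusted threshold.

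With 3 libraries a group and the divergence of 1 library in each, the standard errors of the 10 genes were 0.40 to 0.75 on the log2 scale, so a change of 1.5-fold lay within 2 standard errors for each of them.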
